A study of Homo sapiens with 6 samples.

Results

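ASCRP002384 and ASCRP002386 are a pair of probes on a human circular RNA microarray, 2 of the 5397 circRNA probes that the array carries. They were chosen from measured values of these same arrays, since both gave a strong signal on every array and a lower signal in sorafenib-resistant cells, and their ID numbers lie close together. No table used here links a probe to the circRNA, host gene or sequence behind it, so each is called by its ID and no sequence is shown.

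The 6 arrays held RNA of HepG2, an established human liver cancer line that the sample labels spell HePG2. There were 3 samples of parental HepG2 cells, labelled sensitive to sorafenib, and 3 of HepG2-SR cells, labelled resistant. HepG2-SR is a single line that was grown out of HepG2 in rising doses of sorafenib. By the labels every sample, parental ones included, had been exposed to 7 µM sorafenib over 48 h, while the array methods do not mention this exposure. The labels do not say whether the 3 samples of a group came from separate cultures, so the spread between them may be technical. As the probes carry no gene names here, the liver origin of the cells was not checked against marker genes.

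A circular RNA forms when a splice donor is joined backwards to an acceptor upstream of it, which closes 1 or more exons into a ring without free ends. RNase R degrades linear RNA from its free end and leaves most rings intact, and the RNA was digested with it before labelling with 1 dye. The array is designed against the back-splice junctions, so a probe reports a ring and not the linear transcript of the same gene. Sorafenib inhibits several kinases, among them Raf and the receptors for vascular endothelial growth factor, and is used against advanced liver cancer.

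The share of circRNA probes that the scanner software marked as well above background lay between 59.6% and 76.1% on the 3 parental arrays, and was 61.1%, 64.6% and 37.3% for HepG2-SR replicates 1, 2 and 3. HepG2-SR array 3 thus stood apart as the dimmest, with a median log2 signal of 2.71 before normalization against 3.73 to 4.91 on the others. Across probes, its correlation with the other arrays was 0.757 to 0.853, against 0.903 to 0.966 among those others. Parental 2 correlated more with HepG2-SR 1 and 2 (0.966 and 0.955) than with parental 1 and 3 (0.944 and 0.937). The arrays carried 2 scan identifiers, parental 2 and 3 with HepG2-SR 1 and 2 sharing one, and parental 1 with HepG2-SR 3 the other. Arrays that share an identifier are called a scan session here. Whether such a set was a slide or a separate run was not examined.

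Both probes are printed in 3 spots, and all 36 of their spots over the 6 arrays were marked well above background. None of the 36 was saturated. The raw brightness of a spot was 5.87 to 569 times that of its local background, which itself lay between 16 and 27 intensity units. Every value of the pair given here thus lies inside the range that the scanner measured.

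The processed signal of a probe is the spot brightness after the software subtracted the background, here as the geometric mean over its spots. That of ASCRP002384 was 12428, 3229.8 and 4813 on the parental arrays in the order of their replicate numbers, against 164, 612 and 369.8 for HepG2-SR in the same order. The lowest parental array was thus far above the highest HepG2-SR array before any scaling between arrays. That of ASCRP002386 was 1470.5, 662 and 985 in parental cells, against 223, 211 and 97.6 in HepG2-SR cells. Again the groups did not overlap. Probes differ in how well they bind and label, so the level of one was not compared with that of the other.

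**Figure D1:**
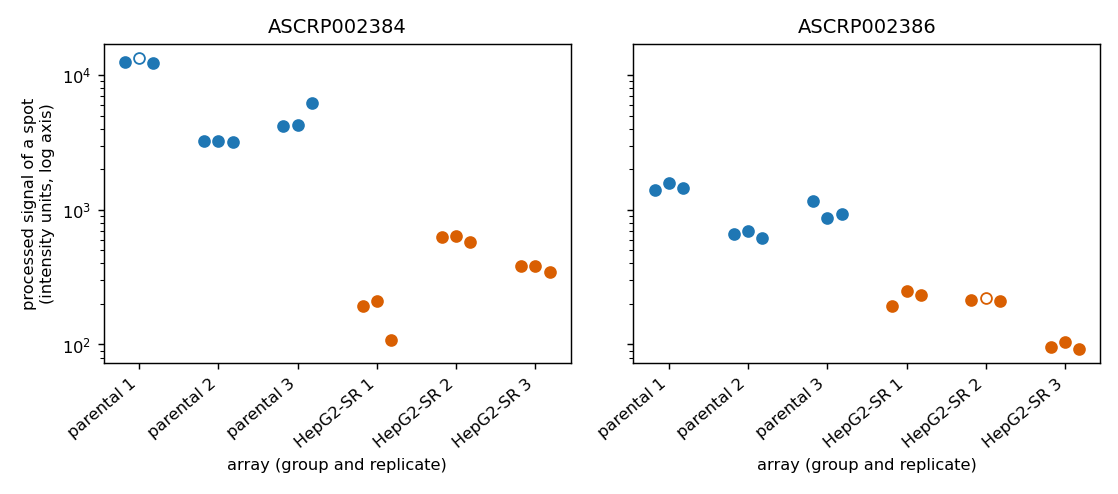
Processed signal of each of the 3 spots of ASCRP002384 (left) and ASCRP002386 (right) on each array, on a log axis in intensity units. Blue points are parental and orange points HepG2-SR arrays, and open points are the 2 spots that the software marked as outliers. All spots of both probes are lower on the HepG2-SR arrays than on the parental arrays, and the spots of ASCRP002384 lie apart from each other on parental 3 and HepG2-SR 1.

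The spots of a probe mostly lay close together. For ASCRP002384 the SD between spots was 0.0094 to 0.09 on the log2 scale on 4 of the 6 arrays, and 0.33 on parental 3 and 0.53 on HepG2-SR 1, where the median over tested probes was 0.08 and 0.11. On both of these arrays the same spot, at row 148 and column 4, differed from the others. It read 6267 beside 4159.8 and 4277 on parental 3, and 108 beside 193 and 212 on HepG2-SR 1. For ASCRP002386 the SD was at most 0.21 on any array. The software marked 2 spots as outliers, which were left out although their signals were near those of their neighbours, 13305 beside 12510.4 and 12346 for ASCRP002384 on parental 1, and 223 beside 212 and 210.4 for ASCRP002386 on HepG2-SR 2.

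After quantile normalization, which forces all arrays onto one common distribution, the log2 signal of ASCRP002384 was 12.88, 10.41 and 13.19 in parental replicates 1, 2 and 3. In HepG2-SR replicates 1, 2 and 3 it was 6.95, 9.21 and 9.71. The means were 12.16 ± 1.52 and 8.63 ± 1.47 (SD, n = 3 each), a difference of -3.53 on the log2 scale (standard error 0.94 from limma), or 11.6-fold. The lowest parental array, number 2, was 0.70 above the highest HepG2-SR array, number 3.

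The log2 signal of ASCRP002386 was 10.55, 8.45 and 10.40 in the parental replicates, against 7.40, 7.75 and 7.70 in those of HepG2-SR. The means were 9.80 ± 1.17 and 7.62 ± 0.19 (SD, n = 3 each), a difference of -2.18 (standard error 0.56 from limma), or 4.54-fold. The gap between the groups was again 0.70, and it lay between parental 2 and HepG2-SR 2. Fewer cells that hold a circRNA and fewer copies per cell give the same lower signal in such bulk RNA and cannot be told apart.

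No p-value is given for either probe, as this contrast chose them. Of the 3623 probes tested, 73 (2.01%) were lower in HepG2-SR cells by a fold over 2 and without overlap between groups, and both ASCRP002384 and ASCRP002386 were among them, which their choice favoured. In the opposite direction 44 probes met the same conditions. After Benjamini-Hochberg adjustment limma called 0 of the 3623 probes (0%) at an adjusted p under 0.05, with 210 at an unadjusted p under 0.05. The methods' t-test also gave 0, with 228 before adjustment. The separation of the groups in these 2 probes is therefore a description of these 6 arrays.

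The normalization changed how the parental arrays compare with each other. The processed signal of ASCRP002384 was lower on parental 3 than on parental 1 (4813 and 12428), whereas its quantile-normalized log2 signal was higher on parental 3 (13.19 and 12.88). With each array scaled to its 75th percentile instead, parental 3 stood at 11.95 and parental 1 at 13.83, in the order of the processed signal. In the authors' own normalized log2 values ASCRP002384 read 13.28, 10.57 and 13.41 for parental and 7.59, 9.30 and 9.76 for HepG2-SR cells, a difference of -3.54. ASCRP002386 read 10.80, 8.66 and 10.47, then 7.82, 8.07 and 8.10 there, a difference of -1.98. Which of parental 1 and 3 was highest in ASCRP002384 thus depended on the scaling, but parental 2 was the lowest of its group for both probes in all 8 ways of computing the values that used all arrays.

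Among the parental arrays the pair moved together in that both probes were low on parental 2. Relative to the group mean of its own probe, ASCRP002384 deviated by 0.72, -1.75 and 1.03 in parental replicates 1, 2 and 3, and ASCRP002386 by 0.75, -1.35 and 0.60. Both were thus low on parental 2 and high on the other arrays of the group in the quantile-normalized values. Between parental 1 and 3 they went opposite ways, and the order of the 3 arrays was the same for both in only 2 of the 8 ways. The log2 difference between the probes, ASCRP002384 minus ASCRP002386, was 2.33, 1.96 and 2.79 on these arrays. Its SD of 0.42 was below that of either probe alone (1.52 and 1.17), and so it was in all 8 ways of computing the values, where it ranged from 0.42 to 0.61.

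Among the HepG2-SR arrays ASCRP002384 varied far more than ASCRP002386 in these values. ASCRP002384 deviated by -1.67, 0.59 and 1.08 from its group mean on arrays 1, 2 and 3, and ASCRP002386 by -0.21, 0.13 and 0.08. Both were thus below their means on HepG2-SR 1 and above them on the other arrays of the group. The difference between the probes was -0.45, 1.47 and 2.01, with an SD of 1.29, and this SD ranged from 0.94 to 1.29 over the 8 ways of computing the values. With 1 probe nearly flat, as ASCRP002386 was in all of them but the signal before normalization, such an SD must stay close to that of the other probe, so it does not show whether the probes moved together in this group. In 7 of the 8 ways both probes were lowest on the same HepG2-SR array, and in 4 the order of the 3 arrays was the same for both, against 8 and 2 for the parental arrays. The exception was the signal before normalization, where HepG2-SR 1 was the lowest array for ASCRP002384 (7.36) but the highest for ASCRP002386 (7.80). HepG2-SR 1 is also the array on which a spot of ASCRP002384 stood apart. With the median of the spots in place of their mean, the SD of the difference within HepG2-SR was 1.21.

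Over all 6 arrays the difference between the probes had an SD of 1.13, against 2.35 for ASCRP002384 and 1.41 for ASCRP002386. Without HepG2-SR 1 the SD of the difference was 0.53. The mean difference between the probes was 2.36 ± 0.42 in parental and 1.01 ± 1.29 in HepG2-SR cells (SD, n = 3 each). The group difference of ASCRP002384 minus that of ASCRP002386 was thus -1.35 on the log2 scale, and -0.68 without HepG2-SR 1. The groups overlapped in this measure, since parental 2 (1.96) lay below HepG2-SR 3 (2.01). They also overlapped with the median of the spots and with outlier spots kept. In the other 5 of the 8 ways they did not overlap, by a gap of 0.36 without normalization or with scaling to the 75th percentile, 0.25 in the authors' values, 0.14 with the normexp background correction and 0.045 without background correction. Whether the groups separate in this measure thus depended on the processing.

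**Figure D2:**
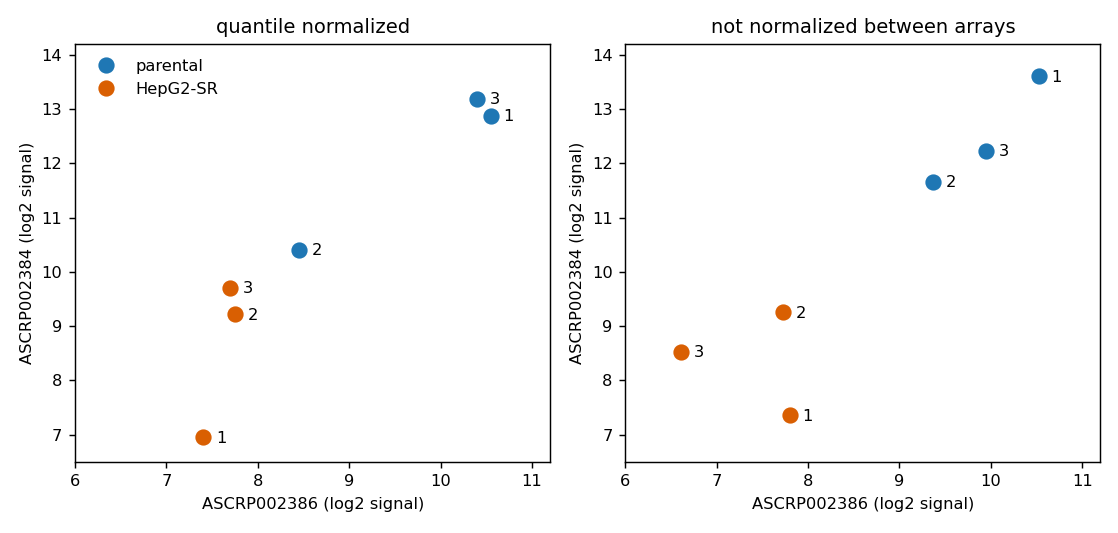
Log2 signal of ASCRP002384 (vertical) against that of ASCRP002386 (horizontal), 1 point per array, quantile normalized (left) and before normalization between arrays (right). Blue is parental, orange is HepG2-SR and the digits are replicate numbers. In both panels parental 2 is the lowest parental array for both probes, while HepG2-SR 1 lies below the other HepG2-SR arrays in ASCRP002384 (6.95 normalized) without a like shift in ASCRP002386 (7.40).

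The difference between the groups was also computed within each scan session. In the session with 2 arrays of each group it was -3.71 for ASCRP002384 and -1.85 for ASCRP002386, and the groups did not overlap. In the other session, with 1 array of each, it was -3.17 and -2.85. The direction was the same in both sessions for both probes. Neither this nor the lack of overlap could have come out otherwise, since the groups did not overlap over all arrays. The choice of the probes from this same contrast favoured that. The sessions are thus no separate check of the direction, and only the sizes of the differences are informative. With the session as a block the values were -3.53 and -2.18, as without it. This had to be so, because each session held as many arrays of one group as of the other.

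The place of an array on its slide, taken here from the horizontal spot coordinate alone, moved with the groups. The vertical coordinate was not used, so arrays in the same place need not share the same position. In both sessions every HepG2-SR array lay to the same side of every parental array, with HepG2-SR 1 and 2 in places 1 and 2 and parental 2 and 3 in places 3 and 4 in one session. In the other, HepG2-SR 3 was in place 3 and parental 1 in place 4. Only place 3 held both groups. There HepG2-SR 3 minus parental 2 was -0.70 for ASCRP002384 and -0.76 for ASCRP002386 after normalization, and -3.13 and -2.76 before it. This comparison crosses the sessions, and it sets the dimmest array against the parental array that was lowest for both probes. Places 1, 2 and 4 held 1 group each, so there place and group cannot be told apart.

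Arrays of the same group differed more in these probes than in most. The within-group SD, pooled over both groups, was 1.50 for ASCRP002384 and 0.84 for ASCRP002386, against a median of 0.47 over the tested probes. Of the 3610 tested probes with a mean on all 6 arrays, 2.33% had a larger one than ASCRP002384 and 17.9% a larger one than ASCRP002386. From the lowest to the highest array, ASCRP002384 covered 6.23 and ASCRP002386 3.15 on the log2 scale.

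**Figure D3:**
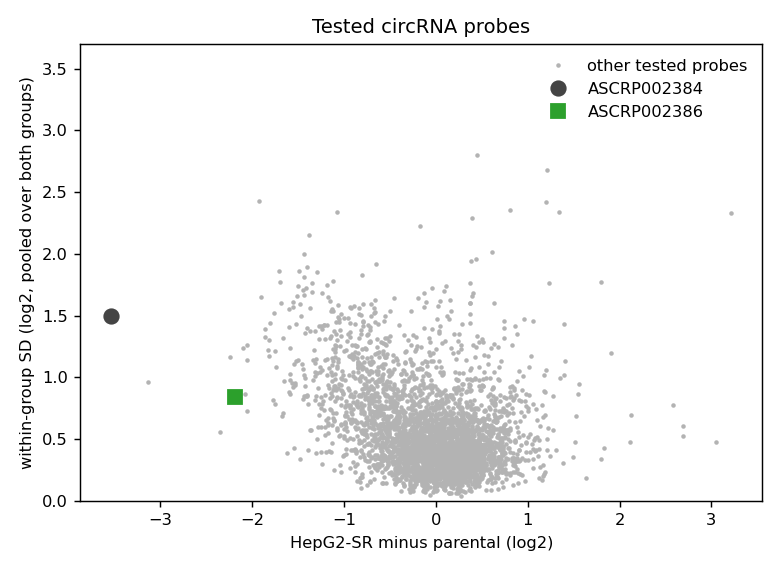
Difference between the groups (HepG2-SR minus parental, log2, horizontal) and within-group SD pooled over both groups (log2, vertical), 1 point per tested probe. ASCRP002384 stands at -3.53 with an SD of 1.50 and ASCRP002386 at -2.18 with 0.84, beside a median SD of 0.47 over the tested probes.

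The probes with the closest ID numbers did not share the pattern in most cases. Of the 21 other probes from 10 numbers below ASCRP002384 to 10 above ASCRP002386, 15 passed the filter for testing, and 4 of these were above background on every array. The probe numbered between the pair was well above background on 5 arrays and read 3.77, 4.48 and 3.84 in parental cells, with 4.86, 4.53 and 2.86 in HepG2-SR cells. Its groups overlapped, with a difference of 0.05. Over the 15, the difference ranged from -1.59 to 0.59 with a median of 0.03, beside a median of -0.0073 over all probes tested. Apart from the one numbered 10 above ASCRP002386, these 15 were dimmer than the pair. They read at most 6.85 on any array, where the lowest value of the pair was 6.95, so they are a limited comparison.

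The probe numbered 10 above ASCRP002386 was singled out after its values were seen. It read 13.36, 11.66 and 10.73 in parental cells, with 9.66, 10.72 and 10.61 in HepG2-SR cells, a difference of -1.59. Its lowest parental and highest HepG2-SR values almost met. It was the only one of the 15 to be more than 2-fold lower without overlap, and also the only one as bright as the pair.

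**Figure D4:**
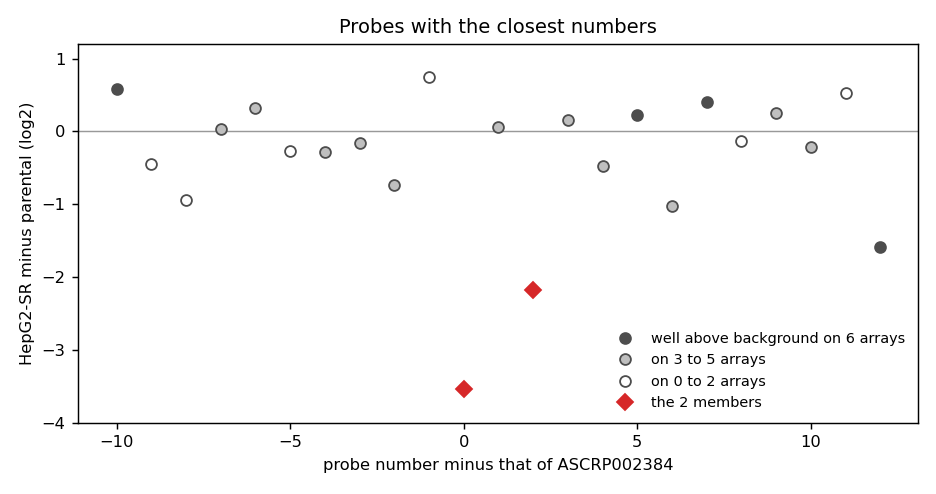
Difference between the groups (HepG2-SR minus parental, log2, quantile normalized) for each probe by its number relative to ASCRP002384. The fill of a circle gives on how many arrays the probe was well above background, and the diamonds are ASCRP002384 (-3.53) and ASCRP002386 (-2.18). Most neighbours lie near 0, and the one 10 numbers above ASCRP002386 lies at -1.59.

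Over the whole array, 768 pairs of probes 2 numbers apart were well above background on all 6 arrays. In 1 of these, ASCRP002384 with ASCRP002386, both probes met the condition of a fold over 2 lower without overlap, and in 12 exactly 1 probe was. The files do not say what neighbouring numbers share. The pair was chosen for this pattern, so the count is only a description.

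To find probes that behave alike, every probe well above background on all 6 arrays was ranked by the SD over the arrays of its normalized log2 signal minus the mean of the pair. The median of this SD was 1.94, and the SD of the pair mean itself was 1.86. The 5 closest probes, given by rank only, had an SD between 0.34 and 0.95. The means of all 5 were lower in HepG2-SR cells by over 2-fold, which closeness to the pair favours, and those of 3 were in the authors' values.

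The closest of these read 9.22, 7.49 and 9.69 in parental cells, with 4.89, 6.30 and 5.80 in HepG2-SR cells. Like the pair it was lowest on parental 2 within its group and lowest on HepG2-SR 1 within the other, and its groups did not overlap. Its difference was -3.14, and -2.13 in the authors' values. In the other 4 the groups overlapped, with differences between -1.86 and -1.29.

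Taken singly, ASCRP002386 was the second closest to ASCRP002384 among 1915 other probes, at an SD of 1.13. From the side of ASCRP002386, 66 other probes were closer than ASCRP002384. For both, the closest was that same first probe, at SDs of 0.67 and 0.65. The pair is thus not the tightest one on these arrays, and its members were joined by their numbers.

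Both probes kept their direction in all 16 other computations of the difference between the groups. Among these, the fits with blocks had to repeat it. Those with fewer arrays could not reverse it, since the groups did not overlap in the values with all arrays. The difference ranged from -4.38 to -2.77 for ASCRP002384 and from -2.79 to -1.77 for ASCRP002386. The smallest difference of ASCRP002384 was that without HepG2-SR 1 and the largest that without parental 2. Without HepG2-SR 3, the dimmest array, the differences were -4.12 and -2.25. Both probes were more than 2-fold lower without overlap in each of the 8 ways of computing the values that used all arrays. The share of all probes meeting this condition ran from 0.138% to 5.88% in these. The choice of the pair from these same arrays favoured this, so it is only a description.

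**Figure D5:**
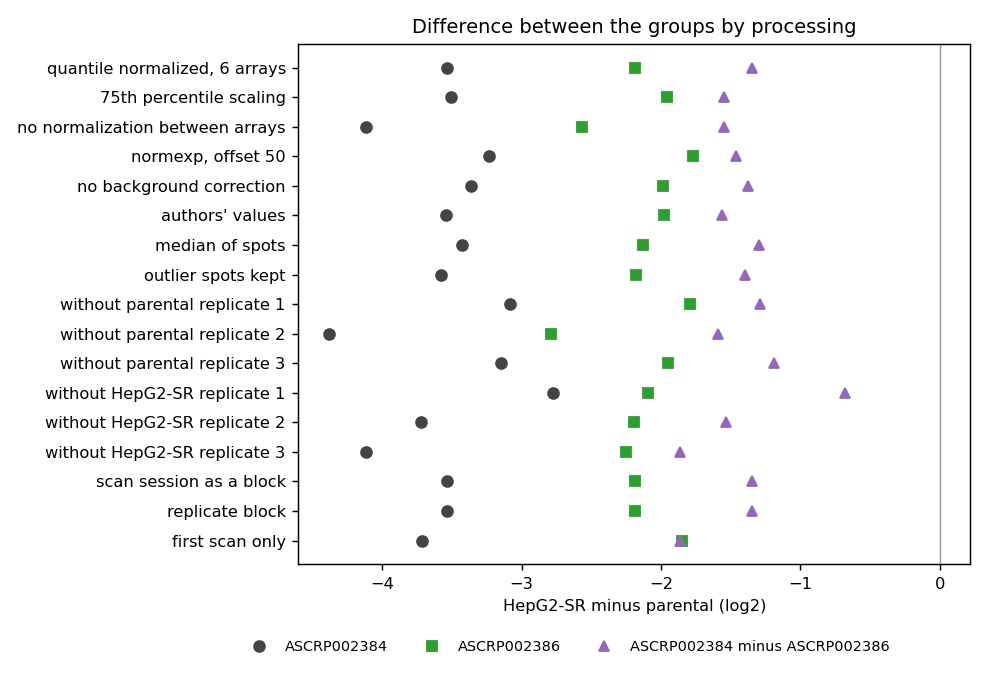
Difference between the groups (HepG2-SR minus parental, log2) under each way of processing the values, for ASCRP002384 (circles), ASCRP002386 (squares) and the first minus the second (triangles). Every point lies below 0, and the triangle without HepG2-SR replicate 1 (-0.68) lies closest to it.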

How the data were processed

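Circular RNA was measured on 6 one-colour arrays. For each array the authors deposited Agilent Feature Extraction 11.0.1.1 output, with an intensity per spot: median brightness, local background and a background-subtracted processed signal, not normalized between arrays. They also deposited log2 values that were quantile normalized, per the methods, for 4200 of the circRNA probes. The background correction and probe filter behind that table are not given in the sources used here. Groups and replicate numbers came from the labels.

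The log2 processed signals of a probe's spots were averaged without outlier spots and quantile normalized over 5397 circRNA probes. Tested were probes with at least 50% of spots well above background on a minimum of 3 arrays. The test was limma 3.58.1 in R 4.3.3, with no covariate and Benjamini-Hochberg adjustment. The fit was first run on simulated data to see that it recovered planted differences. The simulated noise was independent between probes, so that run does not cover differences between whole arrays. The methods' t-test was run on the same values. Alternatives covered normalization, background correction (normexp, offset 50), spot averaging, outlier spots, blocks and arrays left out. The number of arrays limits the precision. The pair was named by the choice of members, its neighbours by number, and alike probes by the smallest SD of the difference. Members and rules were chosen with earlier results of these data known.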

Additional observations from a re-analysis of the deposited data

How the results depend on the processing

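The differences between the groups of ASCRP002384, of ASCRP002386 and of one minus the other moved by less than the spread between replicates in each of 16 alternatives, and the SD of the difference between the probes in each of 14. The first scan alone, added after seeing the data, is 1 of these, and the fits with blocks could not move the group differences. This spread was 1.50 for ASCRP002384, 0.84 for ASCRP002386 and 0.96 for one minus the other, the last also used for the SD. It is wide, so a change without HepG2-SR 1 from -1.35 to -0.68, or of the SD from 1.13 to 0.53, still lay within it. Staying within it thus says little about stability. Leaving out 1 array gave -4.38 to -2.77 for ASCRP002384, -2.79 to -1.79 for ASCRP002386, -1.87 to -0.68 for one minus the other, and 0.53 to 1.27 for that SD. The values nearest 0 of ASCRP002384, of one minus the other and of the SD were those without HepG2-SR 1, and that of ASCRP002386 was without parental 1. A fit with replicate numbers as block left the values at -3.53, -2.18 and -1.35, as it had to, since each number held both groups equally. Deviations of same-numbered arrays correlated at -0.25, 0.20 and 0.02 across probes. These values do not settle whether same-numbered arrays were made together.

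The number of probes over 2-fold lower without overlap was 73 (2.01% of 3623). It was 213 (5.88%) without normalization between arrays, 5 (0.138%) with normexp, 6 (0.166%) without background correction and 6 (0.166% of 3620) in the authors' values. Of the 1916 probes well above background on all 6 arrays, as both members were, 12 met the condition. With 1 array left out the number ranged from 66 to 305, the highest being without HepG2-SR 1. It was 116 without parental 2 and 141 without parental 3. Groups of 2 separate more easily than groups of 3; otherwise the cause was not tested. At an adjusted p under 0.05 there were 0 probes in each of the 5 alternatives run for it. Low signal limits HepG2-SR 3 most.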
